A study of Mus musculus with 15 samples.

Results

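The genes described here are those named for the translation initiation factors, the proteins that bring a ribosome to the start codon of an mRNA. They were taken as every row whose gene symbol began with Eif followed by a digit from 1 to 6, leaving out the eIF2 kinases (Eif2ak symbols) and the symbols marked -ps as pseudogenes. This left 54 of the 54390 genes in the count files, after 4 Eif2ak and 10 -ps symbols had been dropped from 68. Of these 54 genes, 47 held enough reads to be tested, 1 of which, Eif2c5, meets the rule by its symbol only and is annotated as a long intergenic non-coding RNA. RNA was sequenced from 15 libraries of BV2, an immortalised mouse microglial cell line used as a macrophage model. WT non-foamy cells (WT_NF, n = 4) were kept in medium alone, and WT foamy cells (WT_F, n = 4) were given 20 μg ml-1 of soluble cholesterol overnight. Trem2-/- non-foamy cells (KO_NF, n = 3) and Trem2-/- foamy cells (KO_F, n = 4) received the same 2 treatments. A Trem2 guide had been given to a single clone of BV2 that carried Cas9, and clones without Trem2 were then grown from single cells, so a comparison of genotypes is also one of clones. Whether the WT libraries came from that Cas9 clone is not given in the sources used here. Nothing in the sources used here says that the libraries of a group came from separate cultures, so p-values measure the spread between these samples, which may be technical.

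Initiation proceeds through a relay of complexes. The factors eIF1, eIF1A, eIF2 with its initiator tRNA, eIF3 and eIF5 gather on the small ribosomal subunit. The cap-binding complex eIF4F, made of the cap binder eIF4E, the scaffold eIF4G and the helicase eIF4A, attaches that subunit to the mRNA. eIF2B recharges eIF2 after each round and is the target of the integrated stress response, in which phosphorylated eIF2alpha blocks it. The 4E-BP proteins hold eIF4E back until the kinase mTOR phosphorylates them, and both controls are known to answer to stress and nutrient supply.

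Each library held 23538963 to 41683825 counted reads, and the initiation factor genes took 1.30% to 1.49% of them. Trem2 transcript was lower in all 7 Trem2-/- libraries (214 to 232 CPM, scaled reads of a gene per 1000000 reads of the library, without and 218 to 227 CPM with cholesterol) than in any WT library (327 to 415 and 337 to 399.6 CPM), although it was not lost, and read counts do not show whether its reading frame was broken. Of 12 microglia and macrophage markers, 10 lay above 1 CPM on average, including Cd68, Csf1r and Lyz2, whereas Tmem119 and Cx3cr1 averaged 0.37 and 0.88 CPM. Their summed level was 5757 to 6889 CPM in WT_NF, 6217 to 7318 CPM in WT_F, 10177 to 10815 CPM in KO_NF and 9888 to 11015 CPM in KO_F, so it moved with genotype, and its part in the results was not tested. Neuron, astrocyte, fibroblast, T cell and epithelial markers each summed to at most 0.63 CPM in any library, with Snap25, Aqp4, Mog, Col1a1 and Epcam at 0 throughout, and oligodendrocyte markers reached 2.57 CPM at most. In bulk RNA, fewer cells of a kind and less RNA per cell cannot be told apart. WT_NF replicate 3 stood apart from the other WT_NF libraries: it was the smallest of all, its scaling factor was 0.966 against 1.07 to 1.08, and its initiation factor share was 1.40% against 1.48% to 1.49%.

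Promoter windows from RefSeq (GRCm38.p6, 250 bases before to 50 bases after the start) matched 41 of the 54 genes. The E-box CACGTG, which reads the same on both strands and is the letter sequence bound by Myc-type factors, lay in the windows of 10 of these 41 genes (24.4%), against 8.09% of all genes with a window and 11.8% of the tested ones. The ETS-type sequence CCGGAAG, searched on both strands, lay in 15 of 41 (36.6%), against 9.93% of all genes and 21.1% of the tested ones. The C/EBP-ATF sequence TGATGNAAN lay in 1 of 41, that of Eif2s3x (2.44%, against 4.50% and 2.84%). Of 17 genes with a window that were lower in Trem2-/- non-foamy cells, 4 held an E-box (Eif4e, Eif4g1, Eif5a and Eif4h). So did 1 of 6 that were higher (Eif3f) and 4 of 15 that were not called different (Eif1b, Eif3a, Eif3k and Eif4a1). Eif5a2, which was not tested, held an E-box as well. A gene counted if any of its windows held the sequence. In Eif4e and Eif5a the window at the annotated gene start held no E-box, and that of Eif4g1 lies inside the annotated gene. These matches describe letters and not bound sites. The 6 stretches printed here, on the strand of the gene and with the E-box in capitals, come from genes of all 3 kinds, because these genes carry the comparisons that follow.
Eif4e, chr3:138527192-138527221, plus strand: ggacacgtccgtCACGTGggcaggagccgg
Eif4g1, chr16:20672730-20672759, plus strand: ctctgcgccggtCACGTGgggcgctggctg
Eif5a, chr11:69921443-69921472, minus strand: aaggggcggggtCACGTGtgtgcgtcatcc
Eif4h, chr5:134639488-134639517, minus strand: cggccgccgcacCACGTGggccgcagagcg
Eif3f, chr7:108934335-108934364, plus strand: caagatatgattCACGTGgtataaatttag
Eif4a1, chr11:69672595-69672624, minus strand: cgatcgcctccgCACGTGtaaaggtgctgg

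The comparison of genotypes asked how initiation factor transcripts differed between Trem2-/- and WT cells in each medium. Without cholesterol, 8 of the 47 tested genes were higher and 21 lower in Trem2-/- cells (edgeR quasi-likelihood test, Benjamini-Hochberg over all 14237 tested genes, adjusted p under 0.05), where 21.0% of all tested genes were higher and 22.6% lower. A log2 fold change is given with its standard error after the ± sign. The share of lower initiation factor genes was thus 44.7% and that of higher ones 17.0%. With cholesterol, 9 were higher (19.1%) and 13 lower (27.7%), against 14.3% and 15.9% of all tested genes. The median log2 fold change of the 47 genes was -0.12 without and -0.029 with cholesterol, and that of all tested genes was 0.017 and 0.00033. These 2 comparisons share no library. Of the higher genes 7 were called in both and of the lower genes 13, and no gene was called in opposite directions. The shared genes were 87.5% of the higher and 61.9% of the lower genes called without cholesterol, where the same shares over all tested genes were 55.2% and 58.9%. They were 77.8% of the higher and 100% of the lower genes called with cholesterol, against 80.9% and 84.0% over all tested genes.

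**Figure D1:**
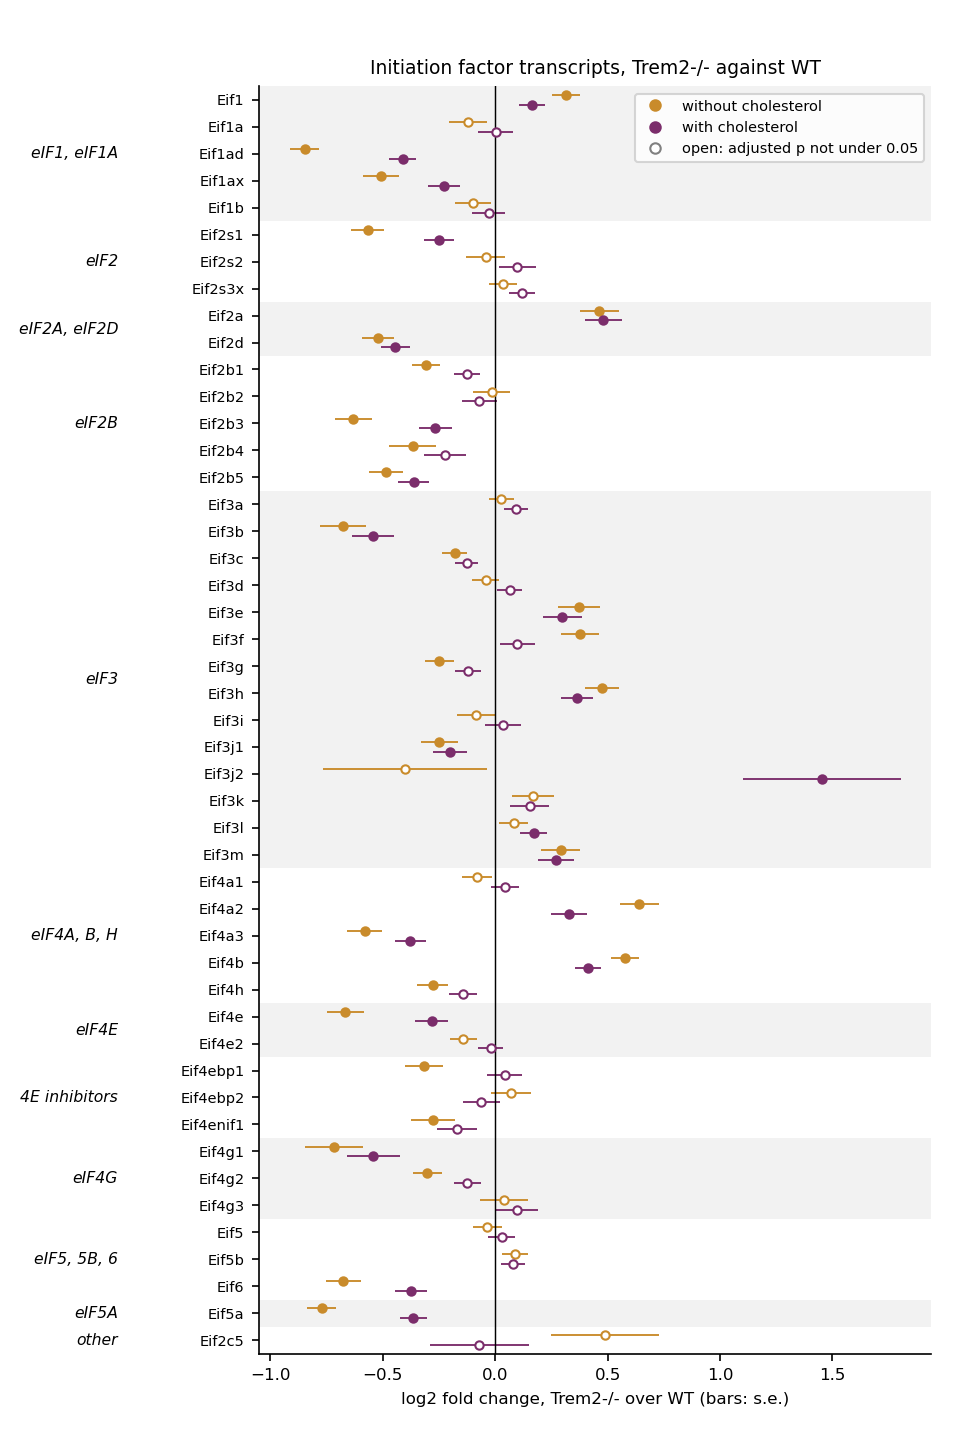
Log2 fold change of each tested initiation factor gene, Trem2-/- over WT, without (gold) and with cholesterol (purple), grouped by factor. Bars are standard errors from the fit to all 15 libraries, for comparisons of 4 against 3 and 4 against 4 libraries, and filled points had an adjusted p under 0.05. Most filled points lie left of 0, those of Eif1, Eif2a, Eif3e, Eif3f, Eif3h, Eif3m, Eif4a2 and Eif4b lie to the right, and so do those of Eif3l and, farthest out, Eif3j2, which are filled with cholesterol only.

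For 31 of the 47 genes (66.0%) the KO_NF libraries did not overlap the WT_NF libraries, against 46.1% of all tested genes. With cholesterol this held for 23 genes (48.9%), against 28.8%. Members called lower without cholesterol had a median exonic length of 3511 bases and a median level of 117 CPM, and those called higher had 3680 bases and 373 CPM. The 18 members not called had 4251 bases and 208 CPM. Scaling by total counts alone, in place of the trimmed mean of M-values, moved the median of all genes by -0.14 and -0.13 on the log2 scale in the 2 comparisons. Under it 29 members were called lower and 8 higher in medium alone, where 30.8% of all tested genes were lower and 12.8% higher. In cholesterol 20 were then lower and 7 higher, in place of the 13 and 9 given above, where 25.7% of all tested genes were lower and 7.83% higher.

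Of the 5 tested genes of the eIF4E and eIF4G families, Eif4e, Eif4g1 and Eif4g2 were lower without cholesterol, and Eif4e2 and Eif4g3 were not called. Eif4e (chr3:138526179-138559696), the cap binder, stood at 256, 228, 250.4 and 239.9 CPM in the WT_NF libraries and at 157, 155 and 149 CPM in the KO_NF libraries. With cholesterol it stood at 182, 200.3, 227 and 224 CPM in WT and 175, 161, 157 and 192 CPM in Trem2-/- cells, so the groups were apart without cholesterol and overlapped with it. Its log2 fold change was -0.67 ± 0.080, adjusted p = 4.91e-07 without and -0.28 ± 0.073, adjusted p = 0.00502 with cholesterol. Eif4g1 (chr16:20668313-20692884), the main scaffold, was at 275, 281, 193 and 322 CPM in WT_NF and 161, 155 and 172 CPM in KO_NF. Among WT_NF libraries replicate 3 was the lowest for this gene, yet still above all 3 KO_NF libraries. The log2 fold change of Eif4g1 was -0.72 ± 0.13, adjusted p = 8.03e-05 without and -0.54 ± 0.12, adjusted p = 0.00111 with cholesterol. Eif4g2, a scaffold-like protein that lacks the eIF4E-binding part, was lower without cholesterol (827 to 671 CPM on average, log2 fold change -0.30 ± 0.065, adjusted p = 0.000624), and with cholesterol its log2 fold change was -0.13 ± 0.060, adjusted p = 0.123. Eif4g3, the other full-length scaffold, had log2 fold changes of 0.038 and 0.095, with 95% intervals of -0.19 to 0.27 and -0.12 to 0.31, and was not called. The same was true of Eif4e2, a cap-binding relative linked to repression (-0.14 and -0.021).

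The helicase and its helpers went both ways. Eif4b (chr15:102073773-102097173), an RNA-binding protein that stimulates eIF4A, was among the most abundant of these transcripts and higher in Trem2-/- cells: 1191, 1211, 1137 and 1130.3 CPM in WT_NF against 1778, 1736 and 1703 CPM in KO_NF. With cholesterol it was at 1288, 1319, 1232 and 1189 CPM in WT_F and 1734, 1679.9, 1582 and 1691 CPM in KO_F, and no Trem2-/- library overlapped a WT library in either medium. The log2 fold change of Eif4b was 0.58 ± 0.062, adjusted p = 1.02e-07 without and 0.41 ± 0.058, adjusted p = 1.09e-05 with cholesterol. Eif4a2, one of the pair of cytoplasmic eIF4A helicases, was at 268, 276, 336 and 270.3 CPM in WT_NF and 448, 467 and 429 CPM in KO_NF, again without overlap although WT_NF replicate 3 stood nearest to the Trem2-/- libraries. Its log2 fold change was 0.64 ± 0.087, adjusted p = 2.68e-06 without cholesterol and 0.33 ± 0.081, adjusted p = 0.00364 with it. Eif4a1, the more abundant helicase (1648, 1549, 1556 and 1596 CPM on average in WT_NF, WT_F, KO_NF and KO_F), was not called, with 95% intervals for the log2 fold change of -0.23 to 0.064 and -0.093 to 0.18. Eif4a3, the helicase of the exon junction complex on spliced mRNA, was lower, from 85.1 ± 9.06 CPM (SD, n = 4) to 56.9 ± 3.06 CPM (SD, n = 3) without cholesterol and from 79.0 ± 4.46 to 60.8 ± 1.07 CPM (SD, n = 4 each) with it. Eif4h, a smaller eIF4A helper, was lower without cholesterol (log2 fold change -0.28 ± 0.069, adjusted p = 0.00207), and its value with cholesterol was -0.14 (adjusted p = 0.0917).

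Of the 3 tested genes for inhibitors and the transporter of eIF4E, 2 were lower without cholesterol, against 22.6% of all tested genes, and none was called with it. Eif4ebp1, the 4E-BP best known as an mTOR target, was at 91.9, 89.7, 110.2 and 83.4 CPM in WT_NF and 76.3, 70.8 and 78.4 CPM in KO_NF. It was lower without cholesterol (-0.32 ± 0.085, adjusted p = 0.00401), and with cholesterol its log2 fold change was 0.043 ± 0.078, adjusted p = 0.726. Eif4ebp2 was at 65.6 ± 6.22 CPM in WT_NF (SD, n = 4) and 69.0 ± 3.52 CPM in KO_NF (SD, n = 3) and was not called in either medium. Eif4enif1, which carries eIF4E into the nucleus, was lower without cholesterol at -0.28 ± 0.096, adjusted p = 0.0233. That call was lost without WT_NF replicate 1 or 2 or KO_NF replicate 1 or 3 (log2 fold change from -0.42 to -0.22, adjusted p up to 0.112 over all 14 alternatives), and the libraries of the 2 groups overlapped.

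**Figure D2:**
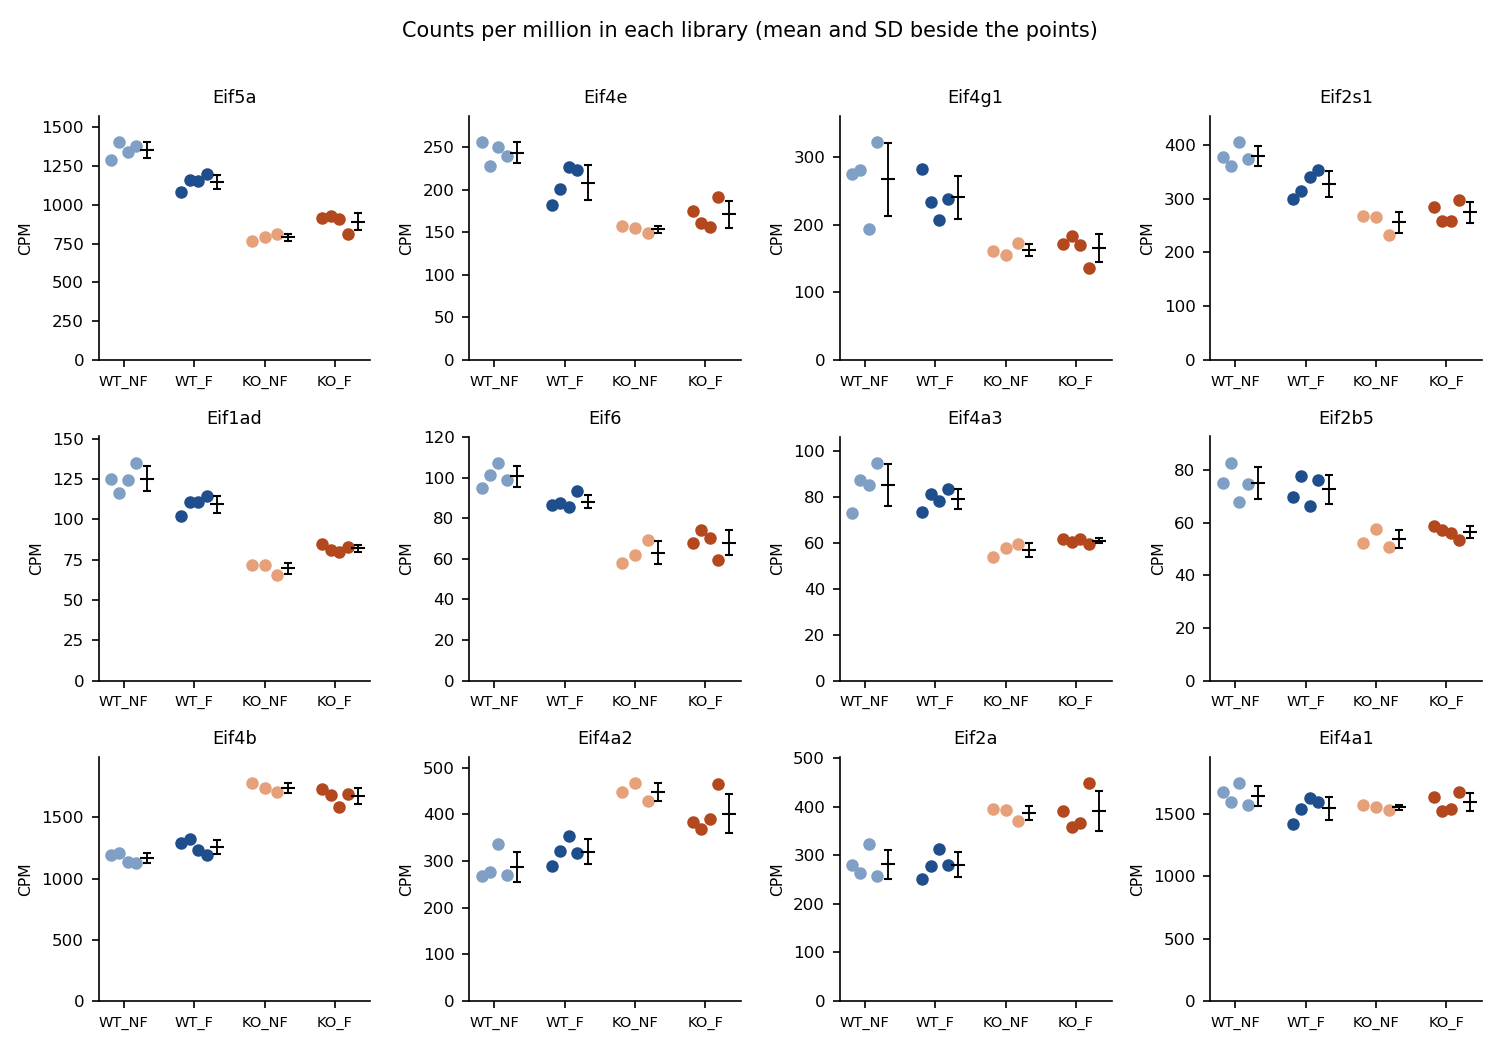
CPM of 12 initiation factor genes in each library, with the mean and SD of each group to the right of its points (n = 4, 4, 3 and 4). Eif5a, Eif4e, Eif4g1, Eif2s1, Eif1ad, Eif6, Eif4a3 and Eif2b5 were lower in both Trem2-/- groups, Eif4b, Eif4a2 and Eif2a were higher, and Eif4a1 was level at about the same height in all 4 groups.

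In the eIF2 branch, the transcripts of the phosphorylated subunit and of most subunits of its exchange factor were lower while those of the other eIF2 subunits were not called. Eif2s1 (chr12:78861819-78887010) encodes eIF2alpha, the subunit that stress kinases phosphorylate. It was at 378, 359.9, 405 and 374 CPM in WT_NF and 268, 266 and 233 CPM in KO_NF, and at 299, 315, 340.1 and 353 CPM in WT_F and 285, 258, 259 and 297 CPM in KO_F. The groups did not overlap in either medium, and the log2 fold change was -0.57 ± 0.075, adjusted p = 1.82e-06 without and -0.25 ± 0.069, adjusted p = 0.00775 with cholesterol. Eif2s2 (eIF2beta) and Eif2s3x (eIF2gamma, which binds the tRNA and GTP) had log2 fold changes of -0.042 and 0.036 without and 0.098 and 0.12 with cholesterol. For Eif2s3x, 34.6% of the 50-base stretches of its exons also occur in other genes, mostly in Gm2223. Of the 5 subunits of eIF2B, 4 were lower without cholesterol, against 22.6% of all tested genes, and 2 with it, against 15.9%. Eif2b5, the catalytic epsilon subunit, was at 75.1, 82.9, 67.8 and 74.7 CPM in WT_NF and 52.5, 57.6 and 51.0 CPM in KO_NF, with log2 fold changes of -0.49 ± 0.075, adjusted p = 1.46e-05 without and -0.36 ± 0.069, adjusted p = 0.000312 with cholesterol. Eif2b3 (gamma) was lower in both media (-0.63 and -0.27). Eif2b1 (alpha) and Eif2b4 (delta) were lower without cholesterol only by the test (-0.31 and -0.37), their values with cholesterol being -0.13 (adjusted p = 0.117) and -0.22 (adjusted p = 0.0773). Eif2b2 (beta) lay at 35.9 and 35.6 CPM on average in WT_NF and KO_NF and was not called.

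The 2 factors that can deliver tRNA without eIF2 parted from each other. Eif2a, which encodes eIF2A and not eIF2alpha, was higher in Trem2-/- cells: 279, 264, 324 and 257 CPM in WT_NF against 396, 394 and 372 CPM in KO_NF, and 250.3, 277, 313 and 281 CPM in WT_F against 391, 358, 367 and 449 CPM in KO_F. Its log2 fold change was 0.46 ± 0.087, adjusted p = 0.000148 and 0.48 ± 0.081, adjusted p = 9.69e-05. Eif2d, which also acts in ribosome recycling, was lower, with 48.4, 54.4, 48.9 and 51.2 CPM in WT_NF against 37.0, 33.9 and 35.2 CPM in KO_NF and log2 fold changes of -0.52 ± 0.070, adjusted p = 2.42e-06 and -0.44 ± 0.064, adjusted p = 1.55e-05. Neither gene had overlapping genotype groups in either medium.

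Eif1ad, which encodes a protein with an eIF1A-like domain and is not known as a scanning factor, had the lowest adjusted p of the 47 genes without cholesterol. It was at 125, 116, 124 and 135 CPM in WT_NF and 71.9, 71.3 and 65.3 CPM in KO_NF, and at 102, 111, 110.4 and 114 CPM in WT_F and 85.0, 81.2, 79.9 and 82.5 CPM in KO_F. The log2 fold change was -0.85 ± 0.066, adjusted p = 7.53e-10 and -0.41 ± 0.060, adjusted p = 1.55e-05. Of its exonic bases, 15.3% overlap Banf1 on the opposite strand, and the strand setting of the counting is not given in the sources used here. Eif1ax, the X-linked eIF1A gene, was lower in both media (-0.51 and -0.23), and with cholesterol the call was lost without WT_F replicate 4 or KO_F replicate 2 or 3 (log2 fold change from -0.36 to -0.18, adjusted p up to 0.0821 over all 15 alternatives). Eif1a, its autosomal copy, was not called (-0.12 and 0.0024). Eif1, which guards the choice of start codon, was higher at 166, 176 and 154 CPM in KO_NF against 132, 138, 129.7 and 131 CPM in WT_NF (0.31 ± 0.063, adjusted p = 0.000274). With cholesterol the difference was 0.16 ± 0.058, adjusted p = 0.0383, and 8 of 15 alternatives ended the call: total counts alone (0.033, adjusted p = 0.684), no filter on low counts, only the compared libraries, the replicate block, and leaving out WT_F replicate 1 or 2 or KO_F replicate 1 or 4 (log2 fold change from 0.033 to 0.19, adjusted p up to 0.684 over all 15 alternatives).

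For eIF3, the large scaffold on the small ribosomal subunit, calls went both ways. Of its 14 genes, Eif3e, Eif3f, Eif3h and Eif3m were higher in medium alone, and Eif3b, Eif3c, Eif3g and Eif3j1 were lower, 4 in each direction, beside 21.0% and 22.6% of all tested genes. With cholesterol 5 were higher and 2 lower, beside 14.3% and 15.9%. Eif3h was at 621, 608, 712 and 581 CPM in WT_NF and 912, 881 and 839 CPM in KO_NF, and at 585, 657, 715 and 669.9 CPM in WT_F and 857, 806, 815 and 901 CPM in KO_F. All Trem2-/- libraries were above all WT libraries, with WT_NF replicate 3 the highest of its group, and the log2 fold change was 0.48 ± 0.076, adjusted p = 2.3e-05 and 0.36 ± 0.071, adjusted p = 0.000447. Eif3b, whose product is the anchor of the b-g-i module, was at 243, 253, 203 and 281 CPM in WT_NF and 151, 152 and 157 CPM in KO_NF, and at 247, 219, 193 and 222 CPM in WT_F and 153, 174, 151 and 126 CPM in KO_F. Here every Trem2-/- library was below every WT library, and the log2 fold change was -0.68 ± 0.10, adjusted p = 1.1e-05 and -0.54 ± 0.093, adjusted p = 0.000117.

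**Figure D3:**
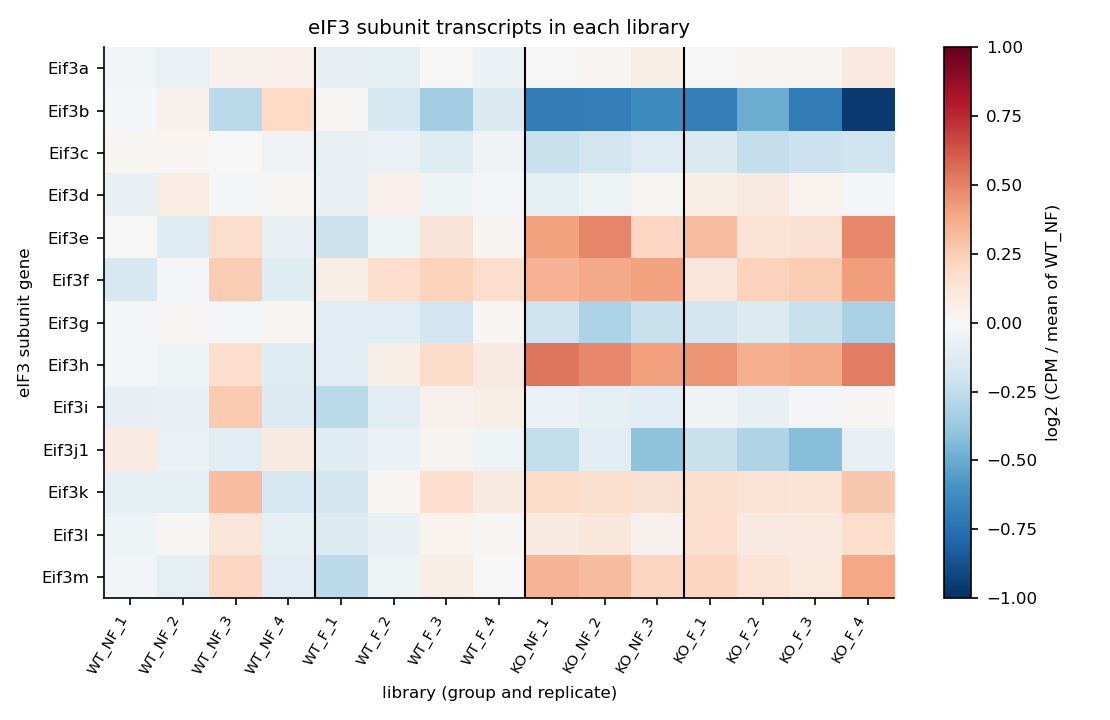
Level of 13 eIF3 subunit genes in each library, as log2 of CPM over the mean of the WT_NF libraries (red above, blue below; Eif3j2 is left out). Eif3b is blue and Eif3h red in all 7 Trem2-/- libraries, Eif3a and Eif3d stay close to 0 (-0.089 to 0.098), and WT_NF replicate 3 is tinted red for Eif3e, Eif3f, Eif3h, Eif3i, Eif3k and Eif3m and blue for Eif3b.

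Eif3e averaged 499.9 ± 46.2 CPM in WT_NF (SD, n = 4) and 647 ± 63.5 CPM in KO_NF (SD, n = 3), and Eif3m averaged 359 ± 37.6 and 439 ± 20.6 CPM. Their log2 fold changes were 0.37 and 0.29 without and 0.30 and 0.27 with cholesterol, and without KO_F replicate 4 the latter were 0.22 and 0.21 and no longer called (adjusted p = 0.0621 and 0.0596), the highest adjusted p over all 15 alternatives for each. Eif3f was higher without cholesterol (0.38 ± 0.084, adjusted p = 0.000803), and its value with cholesterol was 0.098 ± 0.078, adjusted p = 0.373. Eif3c was lower without cholesterol, with a log2 fold change of -0.18, a call lost without KO_NF replicate 1 (adjusted p = 0.0658), and that of Eif3g was -0.25 ± 0.064, adjusted p = 0.00278. Eif3l was called higher with cholesterol only, at 0.17 ± 0.059, adjusted p = 0.0322, and 6 of 15 alternatives ended the call: total counts alone (0.043, adjusted p = 0.437), no filter on low counts, and leaving out WT_F replicate 1 or 2 or KO_F replicate 1 or 4 (log2 fold change from 0.043 to 0.19, adjusted p up to 0.437 over all 15 alternatives). Eif3a, the largest scaffold subunit, lay at 396, 381, 404 and 405 CPM on average in the 4 groups, Eif3d at 94.6, 93.4, 91.9 and 97.7 CPM. Neither was called, and 43.3% of the exonic bases of Eif3d overlap Gm17638 on the opposite strand. Eif3i and Eif3k were not called either. In WT_NF replicate 3 they were at 659 and 454 CPM, against 501 to 521 CPM and 326 to 344 CPM in the other WT_NF libraries.

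Of the factors that act when the large subunit joins, only Eif6 was called among Eif5, Eif5b and Eif6. Eif6, which keeps free large subunits from joining too early, was at 95.0, 101, 107 and 99.0 CPM in WT_NF and 58.0, 61.7 and 69.3 CPM in KO_NF, and at 86.5, 87.6, 85.8 and 93.3 CPM in WT_F and 67.9, 74.4, 70.3 and 59.6 CPM in KO_F. The log2 fold change was -0.68 ± 0.077, adjusted p = 2.16e-07 and -0.38 ± 0.070, adjusted p = 0.000266, without overlap in either medium. Eif5, which triggers GTP hydrolysis on eIF2, stayed between 204 and 241 CPM over all 15 libraries, and Eif5b, the GTPase of subunit joining, between 230.5 and 268 CPM. Their 95% intervals for the log2 fold change without cholesterol were -0.18 to 0.11 and -0.039 to 0.22.

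Eif5a (chr11:69916714-69921958) encodes eIF5A, the hypusine-carrying protein that eases peptide bond formation in elongation and termination and keeps its initiation factor name for historical reasons. It was at 1287, 1404, 1338 and 1379 CPM in WT_NF, 1084, 1161, 1153 and 1196 CPM in WT_F, 769, 795 and 811 CPM in KO_NF and 918, 927, 909 and 811 CPM in KO_F. No pair of groups overlapped in the 4 comparisons of 2 groups, although KO_F replicate 4, at 811 CPM, stood next to the highest KO_NF library. The log2 fold change between genotypes was -0.77 ± 0.066, adjusted p = 3.3e-09 without cholesterol, or 41.5% lower, and -0.37 ± 0.060, adjusted p = 7e-05 with it. Dhps, the enzyme that starts the hypusine modification of eIF5A, was lower too without cholesterol (-0.71 ± 0.10, adjusted p = 5.85e-06), at 21.4 ± 2.56 CPM in WT_NF (SD, n = 4) and 13.1 ± 0.659 CPM in KO_NF (SD, n = 3). With cholesterol Dhps was not called between genotypes, at 16.0 CPM in WT_F and 14.5 CPM in KO_F on average. It fell with cholesterol in WT cells (-0.42 ± 0.092, adjusted p = 0.0141), and its response differed between genotypes (0.57 ± 0.14, adjusted p = 0.0243).

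The next comparisons asked how the transcripts responded to cholesterol within each genotype. In WT cells no initiation factor gene was called higher and 2 were called lower (0% and 4.26% of the 47), where 1.66% of all tested genes were higher and 1.14% lower. At an unadjusted p under 0.05 there were 12 (25.5%, against 16.4% of all tested genes), and DESeq2 called 7 lower and none higher, where it called 3.79% of all genes with an adjusted p lower and 3.53% higher. In Trem2-/- cells none was called by edgeR or by DESeq2. Of all tested genes edgeR called 0.105% higher and 0.0351% lower there. DESeq2 called 0.357% and 0.169% of the genes with an adjusted p. In these cells 2 of the 47 (4.26%) had an unadjusted p under 0.05, against 6.45% of all tested genes. The KO_F and KO_NF libraries did not overlap for 2 genes (4.26%), each higher with cholesterol, against 9.26% of all tested genes. The log2 fold change was negative for 38 of the 47 genes in WT cells (median -0.059) and for 16 in Trem2-/- cells (median 0.025), and the medians of all tested genes were 0.0053 and 0.0045. These responses share no library. For 29 of the 47 genes (61.7%) the value was negative in WT and positive in Trem2-/- cells, against 31.5% of all tested genes.

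**Figure D4:**
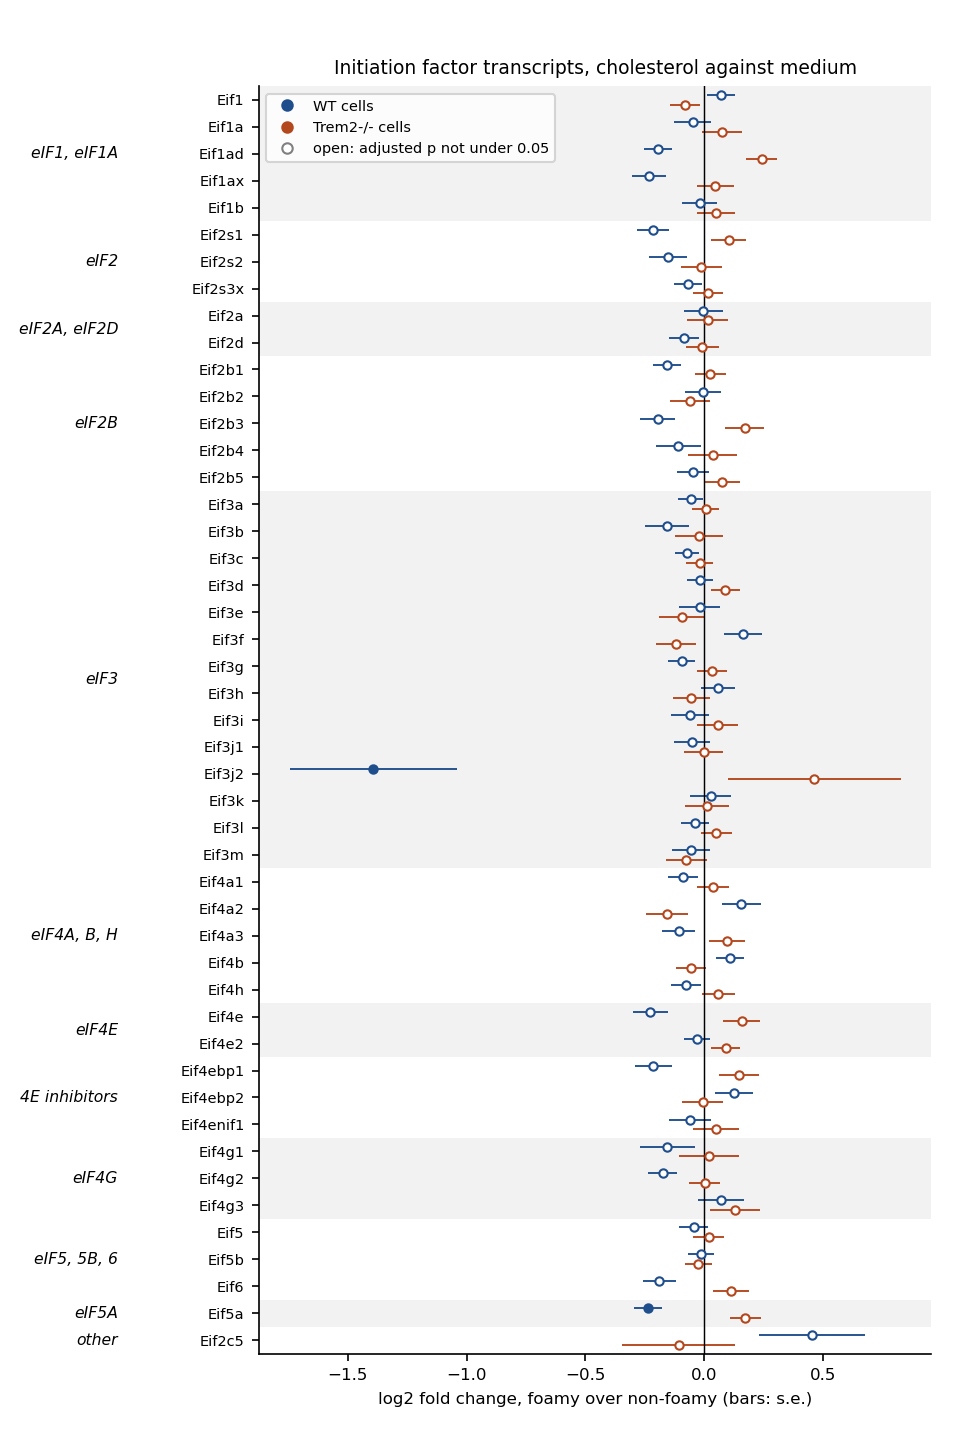
Log2 fold change of each tested initiation factor gene, foamy over non-foamy, in WT (blue) and Trem2-/- cells (orange), with standard errors. Only Eif3j2 and Eif5a in WT cells have filled points (adjusted p under 0.05), and the blue points lie mostly left of 0.

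The genes called lower in WT foamy cells were Eif5a and Eif3j2. Eif5a fell by 0.24 on the log2 scale (s.e. 0.060, adjusted p = 0.0347). The call was lost when only these 8 libraries were fitted and when WT_NF replicate 1, 2 or 4 or WT_F replicate 1, 2 or 3 was left out (log2 fold change from -0.26 to -0.21, adjusted p up to 0.116 over all 15 alternatives). For 8 of the 47 genes (17.0%) every WT_F library was below every WT_NF library, and for 0 every one was above. Of all tested genes 9.71% did not overlap, counting both directions together. Of the 8 genes, 7 missed the threshold: Eif2b1, Eif2b3 and Eif6 (-0.16, -0.20 and -0.19, lowest adjusted p = 0.153), Eif1ad at -0.20 ± 0.059, adjusted p = 0.0759, Eif1ax at -0.23 ± 0.071, adjusted p = 0.076, Eif2s1 at -0.22 ± 0.068, adjusted p = 0.09 and Eif4e at -0.23 ± 0.073, adjusted p = 0.0947. In Trem2-/- cells the last 4 of these had log2 fold changes of 0.24, 0.045, 0.10 and 0.16, and Eif5a had 0.17 ± 0.065 with an adjusted p of 0.687.

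The difference between the responses, that of Trem2-/- cells minus that of WT cells, was called positive for 4 genes (8.51%) and negative for none, against 1.99% and 1.64% of all tested genes. At an unadjusted p under 0.05 there were 12 of either sign (25.5%, against 17.3% of all tested genes), and DESeq2 called 7 positive and none negative, beside 4.94% and 3.64% of all genes with an adjusted p. The difference was 0.44 ± 0.088, adjusted p = 0.00721 for Eif1ad, 0.41 ± 0.088, adjusted p = 0.0126 for Eif5a, 0.38 ± 0.11, adjusted p = 0.0492 for Eif4e and 1.85 ± 0.51, adjusted p = 0.0428 for Eif3j2. Eif1ad was called under all 21 alternatives and Eif5a under 20, with an adjusted p of 0.0517 without KO_NF replicate 1. Eif4e kept its call under 8 and Eif3j2 under 6 of them (log2 fold change from 0.32 to 0.43, adjusted p up to 0.125 over all 21 alternatives for Eif4e, log2 fold change from 1.44 to 2.41, adjusted p up to 0.0916 over all 21 alternatives for Eif3j2). Leaving out any single library except WT_NF replicate 2, WT_F replicates 3 and 4 and KO_F replicate 3 ended the call of Eif4e, and leaving out any except WT_NF replicate 4 and KO_NF replicate 1 ended that of Eif3j2. Both calls were also lost with the replicate block, that of Eif4e with RLE scaling factors (DESeq2's size factors) and that of Eif3j2 with total counts alone. The genotype and cholesterol comparisons share libraries with this difference, so their values stand side by side and are not independent.

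Eif3j2 is a near-identical copy of Eif3j1, and its values need that in view. Of the 50-base stretches in its exons 91.9% also occur in other genes, 90.8% in Eif3j1, while 50.9% of those of Eif3j1 occur elsewhere. How reads that fit several genes were counted is not given in the sources used here. Eif3j2 held 167, 204, 167 and 95 reads in the WT_NF libraries, 60, 100, 66 and 59 in WT_F, 214, 33 and 118 in KO_NF and 192, 157, 144 and 161 in KO_F. In CPM it was 4.33, 6.57, 7.35 and 2.12, then 1.45, 2.45, 2.02 and 1.69, then 6.10, 1.19 and 3.91, then 5.34, 4.99, 4.56 and 5.98. The non-foamy groups spread widely, with WT_NF replicate 4 and KO_NF replicate 2 near the level of WT_F, and the WT_F and WT_NF groups overlapped. Its log2 fold change was -1.39 ± 0.35, adjusted p = 0.0333 in WT cells with cholesterol, 1.45 ± 0.35, adjusted p = 0.00288 between foamy genotypes and -0.40 ± 0.36, adjusted p = 0.397 between non-foamy genotypes. The first of these was lost when only the WT libraries were fitted, with the replicate block and without any WT_NF or WT_F library other than WT_NF replicate 4 (log2 fold change from -1.67 to -1.17, adjusted p up to 0.0926 over all 15 alternatives). Eif3j1, the parent gene of the eIF3j subunit, was at 127, 123, 107 and 107 CPM on average, and lower in Trem2-/- cells, with log2 fold changes of -0.25 ± 0.082, adjusted p = 0.0169 and -0.20 ± 0.075, adjusted p = 0.046. The first call was lost without WT_NF replicate 1 or 4 or KO_NF replicate 3 (log2 fold change from -0.39 to -0.18, adjusted p up to 0.128 over all 14 alternatives). The second was lost with RLE scaling factors (adjusted p = 0.0501) and without WT_F replicate 2, 3 or 4 or KO_F replicate 1, 2 or 3 (log2 fold change from -0.33 to -0.15, adjusted p up to 0.17 over all 15 alternatives). Of its exonic bases 19.0% overlap Spg11 on the opposite strand.

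Eif4a1 has a copy of the same kind outside the 54 genes. The row Eif4a-ps4 on chromosome 1 held 6029 to 10100 reads in every library, 14.0% to 15.2% of the reads of Eif4a1, so that the share hardly moved between libraries. Its sequence differs from the coding sequence of Eif4a1 by 1 of 1218 bases in GRCm38. The stretch around that base, coding bases 514 to 554 with the differing base in capitals, shows how little separates the rows.
Eif4a1: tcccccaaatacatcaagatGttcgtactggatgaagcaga
Eif4a-ps4: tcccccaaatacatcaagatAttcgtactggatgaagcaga

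**Figure D5:**
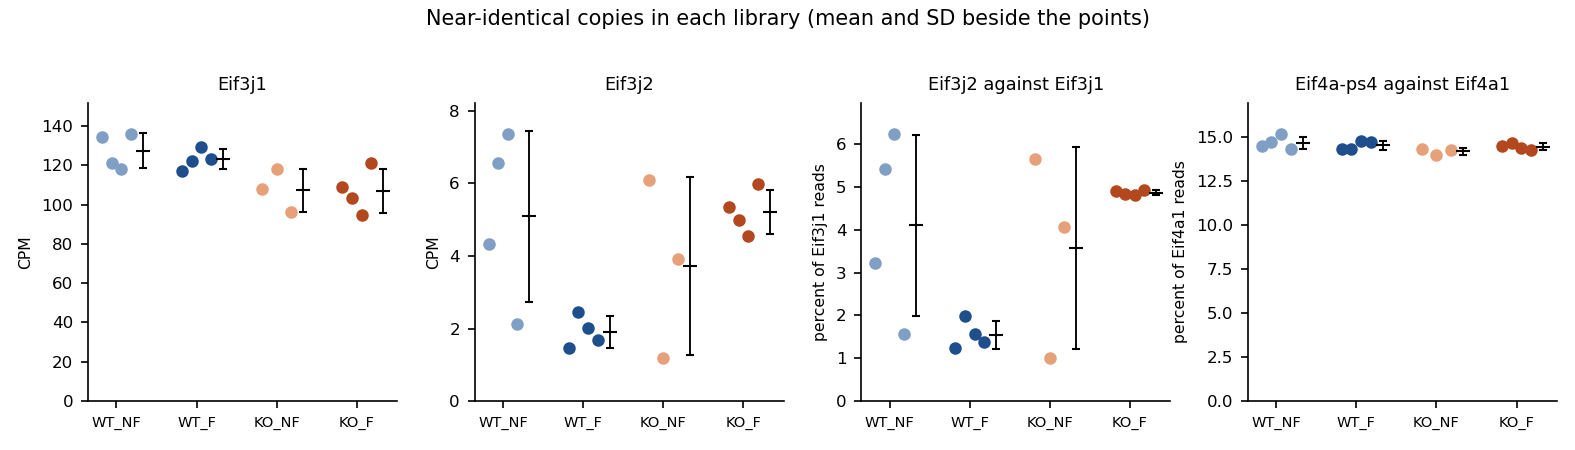
Near-identical copies in each library, with the mean and SD of each group: Eif3j1 and Eif3j2 in CPM, Eif3j2 as a percent of Eif3j1 reads, and Eif4a-ps4 as a percent of Eif4a1 reads. The Eif3j2 share runs from 1.01% to 6.23% and scatters in the non-foamy groups, whereas the Eif4a-ps4 share keeps between 14.0% and 15.2%.

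Related genes were also compared within a library, as the log2 ratio of the reads of the first to the second gene, which no scaling can change. Of 11 pairs, 7 had enough reads for a ratio, and each p is from an exact two-sided permutation test over libraries, adjusted over the 7 pairs. Between foamy genotypes 5 of the 7 ratios differed, each with the smallest p that 4 against 4 libraries allow (0.0286, adjusted p = 0.04). With 7 pairs, a pair at this p passes the adjustment only if most of the others reach it too, so these calls are not separate. Each of the 5 pairs also holds a gene called on its own between foamy genotypes, where the libraries did not overlap for 28.8% of all tested genes. Ratios of other gene pairs were not taken. The ratio of Eif4g1 to Eif4g3 was 3.24 ± 0.14 in WT_F and 2.60 ± 0.13 in KO_F (SD, n = 4 each), a difference of -0.64. That of Eif4a1 to Eif4a2 was 2.28 ± 0.058 and 1.99 ± 0.10, and that of Eif4e to Eif4e2 was 0.48 ± 0.097 and 0.22 ± 0.080. Eif1a to Eif1ax moved the other way, from -0.23 ± 0.070 to 0.0014 ± 0.079, so that both genes held nearly equal reads in KO_F. Eif3j1 to Eif3j2 differed by -1.68. Between non-foamy genotypes 4 against 3 libraries cannot give a p under 0.0571, which 6 of the 7 pairs reached. Their differences were -0.74 for Eif4g1 to Eif4g3, -0.73 for Eif4a1 to Eif4a2, -0.52 for Eif4e to Eif4e2 and 0.39 for Eif1a to Eif1ax. Those of Eif1 to Eif1b and Eif4ebp1 to Eif4ebp2 were 0.41 and -0.39. Between foamy genotypes the last 2 pairs were not called, at 0.19 (adjusted p = 0.0667) and 0.11 (adjusted p = 0.514). In WT cells with cholesterol none of the 7 ratios passed the adjusted threshold (lowest adjusted p = 0.1). Eif1a to Eif1ax (0.18) and Eif4a1 to Eif4a2 (-0.25) reached the smallest possible p there (0.0286). With so few pairs at that p the adjusted threshold cannot be passed, so this result does not show that the ratios stayed the same.

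Genes that act on these factors were taken from 5 lists, whose counts stand beside 21.0% of all tested genes called higher and 22.6% lower without cholesterol and 14.3% and 15.9% with it. Of 9 genes around eIF2alpha phosphorylation, 3 were higher and 2 lower in Trem2-/- cells in both media, and the 4 eIF2alpha kinases were not among them. Ppp1r15a, the stress-induced subunit of the eIF2alpha phosphatase, was at 25.1 ± 0.838 CPM in WT_NF and 45.3 ± 3.75 CPM in KO_NF (0.85 ± 0.082, adjusted p = 1.78e-08). Impact, which restrains the kinase Gcn2, was higher (0.61 ± 0.070, adjusted p = 2.3e-07), and Gcn1, the activator of that kinase, was lower (-0.74 ± 0.15, adjusted p = 0.000411). In WT cells cholesterol raised Ppp1r15a and Impact (0.30 and 0.27, adjusted p = 0.0338 and 0.0232), 2 of the 9 genes, beside 1.66% of all tested genes called higher. None of the 9 was called with cholesterol in Trem2-/- cells. The responses of Ppp1r15a and Impact differed between genotypes (-0.46 and -0.35, adjusted p = 0.0247 and 0.0403). Of 7 tested genes in the list of ATF4, the transcription factor made when eIF2alpha is phosphorylated, and its targets, 2 were higher and 4 lower in Trem2-/- cells in both media, and Atf4 itself was among the lower genes. Atf3 was higher (0.96 ± 0.066, adjusted p = 1.48e-10 without cholesterol) and Asns, the asparagine synthetase, lower (-0.99 ± 0.069, adjusted p = 1.75e-10), with Psat1, a serine synthesis enzyme, also lower (-0.73).

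Of 11 genes of the mTOR, S6 kinase and MNK control of cap binding, 8 were called in medium alone, 4 in each direction, and 4 in cholesterol, 1 of them higher. Mknk1, a kinase of eIF4E, was higher in both media (0.51 and 0.28), and Larp1, the mTOR-controlled repressor of mRNAs for ribosomal proteins, was lower (-0.39 and -0.40). Of 15 other initiation helpers, 9 were called in medium alone, 2 of them higher, and 5 in cholesterol, all lower. Dhx29, a helicase for structured 5′ ends, was lower without cholesterol (-1.17 ± 0.14, adjusted p = 4.66e-07), as was Abce1, the ribosome recycling factor (-0.51 ± 0.068, adjusted p = 2.11e-06). Of 9 tested elongation and termination factors, 5 were higher and 3 lower without cholesterol. Eef1a1, the elongation factor that delivers tRNA, was higher (0.57 ± 0.094, adjusted p = 3.06e-05), while Gspt1 and Etf1, the release factors eRF3 and eRF1, were lower (-0.65 and -0.38). The median log2 fold changes of the 5 lists without cholesterol, in the order given, were 0.14, -0.37, -0.06, -0.18 and 0.27, beside 0.017 for all tested genes.

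The level of the transcripts, as CPM per kilobase of annotated exon over all 15 libraries, ran from 1.44 to 462 among the 47 tested genes. Eif3h led with 462, followed by Eif5a with 447, Eif4a1 with 367 and Eif4b with 322. At the low end were Eif4g3 with 2.30, Eif3j2 with 1.68 and the non-coding Eif2c5 with 1.44. The eIF2B subunits, at 4.68 to 25.1 CPM per kilobase, were below the eIF2 subunits they serve, at 52.0 to 120.1. The 7 untested genes included Eif2s3y, Eif4a3l1, Eif4e1b and Eif4e3, which had no read in any library, and 0 reads allow up to 0.072 to 0.13 CPM by the size of the library (3 reads, counting error only). Eif4a3l2, Eif4ebp3 and Eif5a2 had at most 6, 12 and 18 reads in a library. Of the exonic bases of Eif4ebp3, 67.3% overlap AC115631.1 on the same strand, and 14.8% of those of Eif4e3 overlap Gm20696 on the same strand. How reads in such overlaps were counted is not given in the sources used here. By these counts, Eif4e and Eif4e2 among the 4 cap binders could be tested, as could Eif4ebp1 and Eif4ebp2 among the 4E-BP genes.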

How the data were processed

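RNA from BV2 cells was extracted with TRIzol and RNeasy kits, and TruSeq libraries were sequenced on a NovaSeq. The deposited files hold whole-number counts of reads per gene and library, which the authors made with the CHURP pipeline (Trimmomatic, HISAT2, SAMtools and featureCounts) on GRCm38 with Ensembl genes (the labels name mm10). How strand and multiply matching reads were treated is not given in the sources used here. Groups were taken from the labels.

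One model was fitted to all 15 libraries with 1 mean per group in edgeR 4.0.16 (R 4.3.3), with the trimmed mean of M-values for scaling, filterByExpr with a minimum count of 10 (14237 genes kept) and the quasi-likelihood test. P-values were adjusted by the Benjamini-Hochberg method over all tested genes, and calls are adjusted p under 0.05. Standard errors are the log2 fold change over the root of its F value, and 95% intervals use the residual degrees of freedom. DESeq2 1.42.0, other scalings and filters, a replicate block and leaving out each library were alternatives. The initiation factor genes and the gene lists were chosen with earlier results of these data known, and all genes that meet the symbol rule are reported, with up to 3 genes of each list per comparison, those with the lowest adjusted p. No library pair of a group agreed within sampling noise (5.95 to 45.2 chi-square per gene). Coordinates and exons are from GENCODE M21 (GRCm38) and may differ from the authors' annotation. The procedure was tested on simulated counts in which 200 genes were changed, in WT_F only. It was not tried on differences as widespread as those between genotypes.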

Additional observations from a re-analysis of the deposited data

Results flagged for a closer look

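In 9 of the 141 groups of 4 libraries, 1 library lay far from the other 3 (Dixon's test), where chance at 1 in 20 would give about 7.05. Of these 9, 5 were WT_NF replicate 3: Eif1a at 218 CPM (192 to 196 in the others), Eif3i at 659 CPM (501 to 521), Eif3k at 454 CPM (326 to 344), Eif4a2 at 336 CPM (268 to 276) and Eif4g3 at 20.6 CPM (25.0 to 25.8). KO_F replicate 4 was apart for Eif3k, at 442 CPM (403 to 408), and for Eif5a, at 811 CPM (909 to 927). WT_NF replicate 1 was apart for Eif1b at 28.7 CPM, and WT_F replicate 4 for Eif2b4 at 20.0 CPM.

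The response to cholesterol differed between genotypes for 4 genes, by a test of the difference itself (edgeR, adjusted p under 0.05). The Trem2-/- response minus the WT response was 0.44 on the log2 scale for Eif1ad, 0.41 for Eif5a, 0.38 for Eif4e and 1.85 for Eif3j2, a gene whose reads are hard to tell from those of Eif3j1.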

How the results depend on the processing

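The count of initiation factor genes called for WT foamy against WT non-foamy cells moved from 2 to 7 with DESeq2, 5 with total counts alone, 4 with no filter on low counts, 0 with only the compared libraries and 1 with a replicate block, and to between 0 and 3 when single libraries were left out. For the difference between the responses it moved from 4 to 7 with DESeq2, 3 with RLE scaling factors and 2 with the replicate block. It was 7 with total counts alone (6 positive and 1 negative) and 6 with no filter on low counts (5 positive and 1 negative). Without single libraries it lay between 2 and 4. Of these calls, 2 were positive and 2 negative without WT_NF replicate 3, and 3 were positive and 1 negative without KO_F replicate 4. Leaving out any other library gave positive calls only. The counts for Trem2-/- against WT stayed at 29 to 37 genes without and 20 to 27 genes with cholesterol under the other tools, scalings, filters and fits, and at 27 to 30 and 18 to 21 without single libraries. The cause of these moves was not tested. No called gene changed direction under any alternative, and 26 of 29, 16 of 22, 0 of 2 and 1 of 4 called genes kept their call under every alternative in KO_NF against WT_NF, KO_F against WT_F, WT_F against WT_NF and the difference. Deviations of libraries with the same replicate number correlated at -0.077 to 0.14 over genes, so the numbers were not taken as pairs, and not every library correlated best with its own number. Of the 47 tested genes 43 had at least 500 reads in every library; Eif3j2 had as few as 33.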

Other observations

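Summed over the genes of a factor, transcripts of eIF2B were at 238 ± 4.4 CPM in WT_NF (SD, n = 4), 222 ± 9.8 CPM in WT_F (n = 4), 185 ± 6.0 CPM in KO_NF (n = 3) and 191 ± 5.4 CPM in KO_F (n = 4), and no Trem2-/- library reached the lowest WT library of the same medium. The 3 eIF4G genes summed to 1119 ± 109 CPM in WT_NF, 999 ± 32.4 CPM in WT_F, 859 ± 18.2 CPM in KO_NF and 864 ± 27.4 CPM in KO_F (SD). The eIF4A, eIF4B and eIF4H genes summed to 3494 ± 78.3, 3495 ± 89.6, 4052 ± 62.0 and 3993 ± 141 CPM in the same order, with Eif4b giving the largest rise. Genes of eIF3 summed to 4379 ± 281, 4295 ± 242, 4748 ± 109.9 and 4679 ± 198 CPM. Because long and abundant transcripts weigh most in such sums, they describe reads and not the number of complexes.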
